A study of Macaca mulatta with 161 samples.

Results

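The genes described here write, erase or guard DNA methylation. They were chosen by symbol as DNMT1, DNMT3A, DNMT3B, DNMT3L, UHRF1, TET1, TET2, TET3, ZFP57 and DPPA3, with earlier results of these data known. Of these 10 genes, 9 were analysed, out of 16049 genes in all, and TET1 was not analysed here. The values came from 161 single cells of blastocysts of the rhesus monkey (Macaca mulatta), 1 sequencing library per cell. Embryos came from fertilised oocytes of females given hormones and were grown in HECM-9 medium with serum, so that all groups share in vitro culture, and the labels name no treatment or genetic change. The surface of each embryo was stained with the dye PKH26, and cells without the dye were taken as inner cells. The early blastocyst (about day 5, a small cavity) gave 44 cells, the middle blastocyst (about day 5.5) 39 cells, the late blastocyst (about day 6, fully expanded) 52 cells and the hatching blastocyst (about day 7) 26 cells. No label names the embryo, animal or culture of a cell. Each stage is therefore 1 sample, cells are not replicates, and every difference below describes these cells without a replicate check and without a p-value.

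Mammalian embryos lose most of the DNA methylation of sperm and egg before implantation and gain a new pattern around implantation. DNMT3A and DNMT3B place new methyl groups with the help of DNMT3L, which has no enzyme activity of its own. DNMT1 copies existing methylation onto new DNA strands and is brought there by UHRF1. TET enzymes oxidise methylcytosine, which starts its removal, while the zinc finger protein ZFP57 and DPPA3 (also named STELLA) protect imprinted and other marks during this loss. The inner cells give rise to the epiblast, the source of the fetus, and to the primitive endoderm, a source of yolk sac. NANOG is a transcription factor of the epiblast and SOX17 one of the primitive endoderm.

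Levels are in FPKM, the fragments of a gene per kilobase of its transcript and per mapped total of the cell, so that genes can be compared per length. Read totals recovered per cell had their median at 11.9 M (mega), with a range of 3.15 to 20.1 M. Stage medians of these totals ran from 11.2 to 12.8 M, and 6714 to 7094 genes reached an FPKM of 1 in the median cell of a stage. In a cell of median depth, an FPKM of 1 stands for 12.7 reads of the short DPPA3 transcript and for 131 reads of the long TET3 transcript, so that a level below 1 in the members was still counted in reads. Clustering within each stage, done without the members and the marker genes, separated 24 late cells with raised epiblast markers (EPI-like) from 28 with raised primitive endoderm markers (PE-like). It also separated 19 EPI-like from 7 PE-like hatching cells. Each named cluster had 12 of 12 EPI markers or 12 of 13 PE markers raised by 1 log2 unit or more over the rest of its stage. No early or middle cluster could be named. The classes were found in these same cells and are used for description. Trophectoderm markers, which belong to outer cells, were present at every stage, with 5 or 6 of 11 at an FPKM of 1 in at least 50% of cells and a median summed level between 2498 and 4085 FPKM. Blood markers reached that level in 0 of 3 cases and oocyte markers in 0 of 9 at every stage. The share of trophectoderm signal in any result was not tested. One early cell, with the number 9 in its title, clustered alone, with 21.4 FPKM of DNMT3L and 51.8 FPKM of DPPA3, each the lowest of its stage.

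The members spanned a wide range of levels, and their order differed between early cells and the EPI-like cells of the hatching stage. In early cells the order of mean log2(FPKM + 1) was DPPA3 (11.02), DNMT3L (9.26), DNMT3B (5.98), DNMT3A (4.96), ZFP57 (4.70), TET2 (3.26), TET3 (3.11), UHRF1 (0.87) and DNMT1 (0.53). Only the gaps after DPPA3, DNMT3L and TET3 were larger than the SD between cells, so the neighbours from DNMT3B to TET3, and UHRF1 with DNMT1, did not differ beyond their spread. In hatching EPI-like cells the order was DPPA3 (10.49), DNMT3B (9.24), DNMT3L (8.48), DNMT3A (6.28), ZFP57 (5.61), DNMT1 (3.49), UHRF1 (3.39), TET3 (3.17) and TET2 (0.53). Here DNMT3B stood above DNMT3L by more than the spread, DNMT1, UHRF1 and TET3 lay within it, and TET2 came last. Over all hatching cells TET2 was also last, but DNMT3B was only 0.02 above DNMT3L, within the spread. In hatching PE-like cells DNMT3L was 1.97 above DNMT3B, again within the spread. There TET2 took place 5 and ZFP57 came last.

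**Figure D1:**
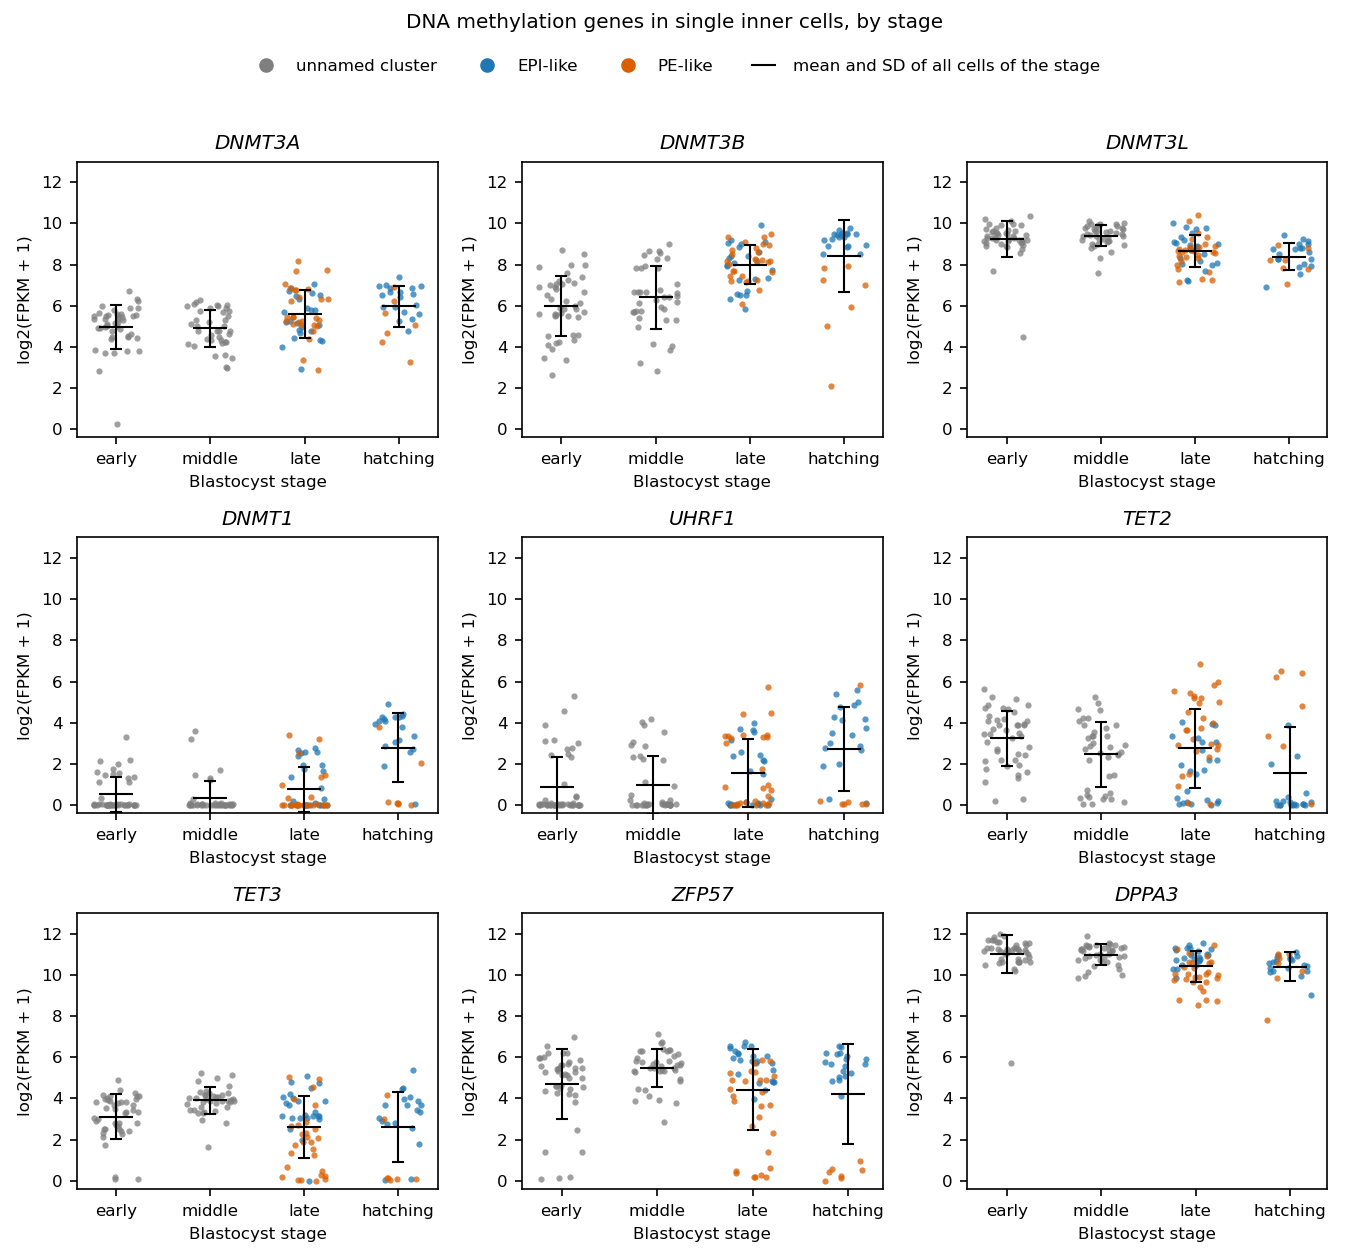
Level of each member in every cell as log2(FPKM + 1) (vertical axis) by blastocyst stage (horizontal axis); points are cells, coloured by class, and bars are the mean and SD over all cells of the stage. DNMT3B was higher in late (mean 8.00) and hatching cells (8.41) than in early cells (5.98), and ZFP57 split into a high and a low group of cells at the hatching stage.

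Between the early and the hatching stage, 5 of 9 members differed by at least 1 log2 unit, of which DNMT1, UHRF1, DNMT3A and DNMT3B were higher and TET2 was lower. Of all 9781 genes with a mean FPKM of at least 1, 27.5% differed that much. The median difference was -0.12 over all genes, and -0.01 after scaling by size factors. The count depended on the range of numbers in the cell titles, whose meaning the labels do not give. In the 12 hatching cells numbered 1 to 18, of which 7 are PE-like (cells with primitive endoderm markers), DNMT1 stayed higher than in early cells by 1.38 and DNMT3B by 1.48. DNMT3A (0.26), UHRF1 (0.71) and TET2 (-0.16) were short of 1 log2 unit there, whereas TET3 (-1.28) and ZFP57 (-2.11) were past it. In the hatching cells of higher numbers, all EPI-like, the 5 members were past it by 1.66 to 3.24 in size. From early to middle, 0 of 9 members passed 1 log2 unit, beside 6.67% of all genes. From middle to late, 3 of 9 passed it, beside 9.76% of all genes. From late to hatching, 3 of 9 passed it, beside 17.1% of all genes.

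DNMT3B, a de novo methyltransferase, differed most between the first and the last stage, by 2.42 log2 units (pooled SD between cells 1.56). Its FPKM ran from 5.20 over a median of 59.4 to 418 in early cells and from 6.07 over 86.2 to 506 in middle cells. In late cells it ran from 56.5 over 278 to 969, and in hatching cells from 3.30 over 534 to 861. The ranges of all 4 stages overlapped, but the lowest late cell was close to the median early cell. The step from middle to late was 1.58 log2 units (pooled SD 1.24). At the hatching stage the 19 EPI-like cells had a mean of 9.24 (SD 0.37) and the 7 PE-like cells one of 6.15 (SD 2.06).

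DNMT3A, the other de novo methyltransferase, had a lower mean than DNMT3B at every stage and differed less between stages. Its median FPKM was 35.1 in early cells (range 0.20 to 103), 26.4 in middle cells (6.96 to 76.8), 41.97 in late cells (6.30 to 288) and 68.9 in hatching cells (8.72 to 170). The stages overlapped widely. Hatching cells were 1.02 log2 units above early cells (pooled SD 1.04), a difference about as large as the spread between cells, and 0.99 above without the early cell that clustered alone. At the hatching stage the rank correlation of DNMT3A with the read total of a cell was 0.66 over 26 cells. It was 0.54 for DNMT3B, 0.43 for UHRF1, 0.42 for ZFP57 and -0.49 for TET2, and at most 0.24 in size for the remaining members. The part of depth in the differences of these genes was not tested.

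DNMT3L, the catalytically inactive partner of both enzymes, was among the 3 highest members at every stage, with lower levels in the later stages. Its median was 634 FPKM in early cells (range 21.4 to 1289), 715 in middle cells (191 to 1126), 417 in late cells (139 to 1358) and 335 in hatching cells (118 to 680). Hatching cells were 0.87 log2 units below early cells (difference -0.87, pooled SD 0.80), which did not reach 1 log2 unit. Without the early cell that clustered alone the difference was -0.98 (pooled SD 0.55). Which of the pair was higher therefore differed between the stages. DNMT3B exceeded DNMT3L in 0 of 44 early cells (exact Clopper-Pearson 95% interval 0 to 8.04%) and in 0 of 39 middle cells (0 to 9.03%). It did so in 16 of 52 late cells (30.8%, interval 18.7 to 45.1%) and in 21 of 26 hatching cells (80.8%, interval 60.6 to 93.4%). In late cells it held in 6 of 24 EPI-like and 10 of 28 PE-like cells, and at the hatching stage in 19 of 19 EPI-like and 2 of 7 PE-like cells. These intervals cover counting error alone, and cells that share an embryo would make them too narrow. DNMT3B exceeded DNMT3A in most cells of each stage, in 31 of 44 early, 33 of 39 middle, 49 of 52 late and 24 of 26 hatching cells. Among the early cells of high title numbers it did so in only 9 of 19.

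**Figure D2:**
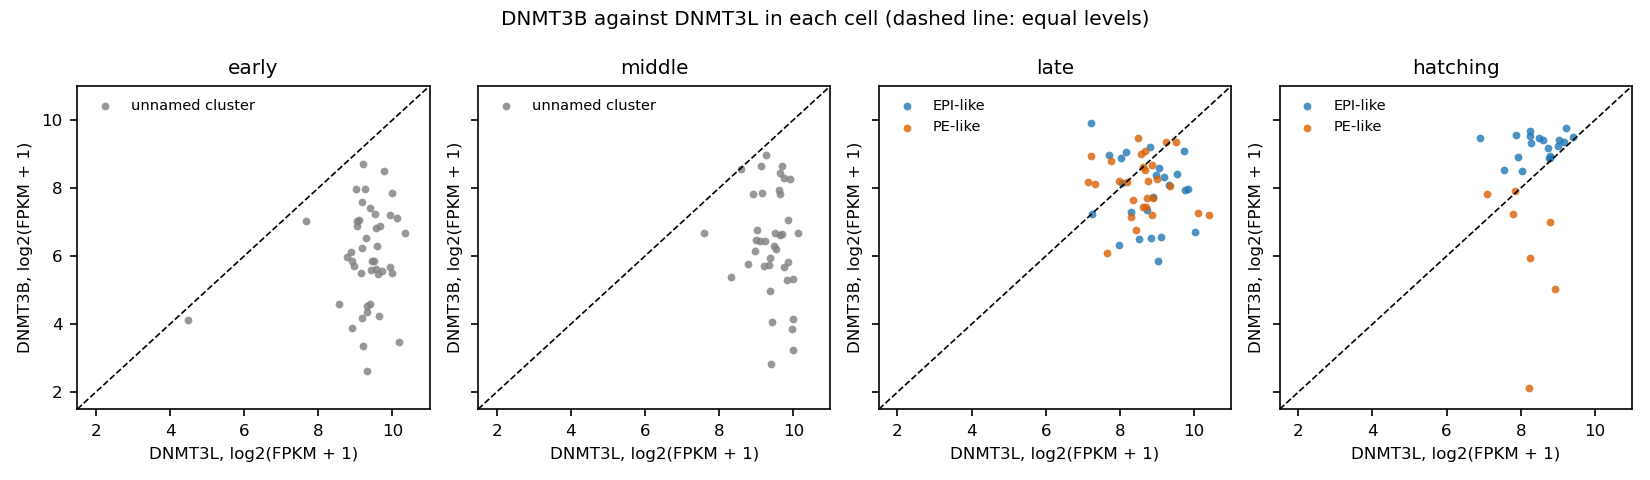
DNMT3B (vertical axis) against DNMT3L (horizontal axis) in each cell, both as log2(FPKM + 1), 1 panel per stage; points are cells coloured by class and the dashed line marks equal levels. No early or middle cell lies above the line, 16 of 52 late cells do, and so do 21 of 26 hatching cells.

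The maintenance pair was low in most cells until the hatching stage. DNMT1 had a median of 0.01 FPKM in early cells (range 0 to 8.98), 0.01 in middle cells (0 to 11.3), 0.02 in late cells (0 to 9.73) and 8.60 in hatching cells (0 to 28.9). Of the early cells, 13 of 44 were at an FPKM of 1 or more (29.5%, interval 16.8 to 45.2%), as were 6 of 39 middle, 16 of 52 late and 20 of 26 hatching cells (76.9%, interval 56.4 to 91.0%). A value of 0 was listed in 20 early, 17 middle, 19 late and 1 hatching cell. At the median depth an FPKM of 1 of DNMT1 is 62.1 reads, and the median over all 161 cells was 2 reads, so the low values are low read numbers and not a coarse step of the unit. UHRF1 had a median of 0.03 FPKM in early cells (0 to 38.1), 0.03 in middle cells (0 to 17.4), 0.81 in late cells (0 to 52.5) and 6.66 in hatching cells (0.02 to 55.4).

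Both maintenance genes were seen together mainly in hatching cells. DNMT1 and UHRF1 were both at an FPKM of 1 or more in 5 of 44 early, 1 of 39 middle, 10 of 52 late and 17 of 26 hatching cells, 16 of the latter being EPI-like. From late to hatching, DNMT1 was higher by 2.02 log2 units (pooled SD 1.31) and UHRF1 by 1.17 (pooled SD 1.78), the second being less than the spread between cells. In the hatching cells of low title numbers UHRF1 was only 0.03 above late cells, and in those of high numbers 2.14. For DNMT1 these values were 1.14 and 2.78. Within EPI-like cells alone the difference was 2.42 for DNMT1 and 1.99 for UHRF1. Of 12 genes of DNA replication, a process in which both proteins act, 0 passed 1 log2 unit in the EPI-like cells, beside 15.9% of all genes. Their median difference was 0.07, and the part of replication in the result was not tested.

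The erasers TET2 and TET3 differed from each other in both time and class. TET2 had a median of 9.97 FPKM in early cells (range 0.15 to 48.4), 5.55 in middle cells (0.04 to 36.8), 6.54 in late cells (0.01 to 116) and 0.12 in hatching cells (0 to 89.6). An FPKM of 1 was reached by 42 of 44 early and 9 of 26 hatching cells. The hatching stage held both the near-empty cells and several of the highest ones, and the mean difference from early cells was -1.71 (pooled SD 1.73). Against late cells it was -1.20, but 0.34 when only the 12 hatching cells numbered 1 to 18 in their titles were taken, of which 7 are PE-like. TET3 had a median of 9.19 FPKM in early cells (0.08 to 28.9), 14.03 in middle cells (2.17 to 36.3), 6.68 in late cells (0 to 32.7) and 7.20 in hatching cells (0.04 to 40.4). Middle cells were the most even, with TET3 at an FPKM of 1 in 39 of 39 cells, and the late mean was 1.29 log2 units lower (difference -1.29, pooled SD 1.23).

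The imprint guard ZFP57 was present in most cells of every stage. It reached an FPKM of 1 in 41 of 44 early, 39 of 39 middle, 45 of 52 late and 19 of 26 hatching cells. Its median was 37.1 FPKM in early cells (0.08 to 127), 48.1 in middle cells (6.32 to 139), 29.2 in late cells (0.13 to 108) and 37.7 in hatching cells (0 to 93.1). The medians were close, yet the spread differed. Its SD was 1.69 log2 units in early, 0.91 in middle, 1.97 in late and 2.42 in hatching cells. DPPA3, a maternal-effect protein that limits loss and gain of methylation, was the highest member at every stage. Its median was 2307 FPKM in early cells (51.8 to 4065), 2263 in middle cells (929 to 3823), 1537 in late cells (369 to 2979) and 1542 in hatching cells (223 to 2240). Hatching cells were 0.62 log2 units below early cells (difference -0.62, pooled SD 0.85), which is within the spread. Without the early cell that clustered alone the difference was -0.74 (pooled SD 0.55), more than the spread though short of 1 log2 unit. Primate genomes hold processed copies of DPPA3, and how reads shared with them were counted is not given in the sources used here. In the RefSeq annotation of the assembly T2T-MMU8v2.0, DPPA3 and NANOG lie in 1 gene neighbourhood, with CLEC4C and NANOGNB between them.

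In late cells, 3 of 9 members differed by at least 1 log2 unit between PE-like and EPI-like cells, beside 17.2% of all genes. TET2 was higher in PE-like cells, and TET3 and ZFP57 were lower. TET2 ran from 0.01 over a median of 2.17 to 15.5 FPKM in the 24 EPI-like cells and from 0.02 over 11.99 to 116 in the 28 PE-like cells, a difference of 1.99 (pooled SD 1.65). TET3 ran from 0 over 8.65 to 32.7 FPKM in EPI-like cells and from 0.01 over 2.71 to 31.6 in PE-like cells (difference -1.53, pooled SD 1.33). ZFP57 ran from 14.7 over 56.2 to 108 FPKM in EPI-like cells and from 0.13 over 15.1 to 58.1 in PE-like cells (difference -2.34, pooled SD 1.60). The classes overlapped in all 3 genes. For ZFP57 the overlap was one-sided, since no EPI-like cell was below 14.7 FPKM while 7 of 28 PE-like cells were below 1. DPPA3 was 0.89 log2 units lower in PE-like cells (difference -0.89, pooled SD 0.62), short of 1 log2 unit but more than the spread. The 3 DNMT3 genes were close between the classes, with differences of 0.37 for DNMT3A, 0.22 for DNMT3B and -0.17 for DNMT3L. Among late cells numbered 3 to 22 in their titles, 9 of each class, DNMT3B differed by 1.41, UHRF1 by 1.77 and DPPA3 by -1.36, each past 1 log2 unit. Among the late cells of higher numbers the same differences were -0.41 for DNMT3B, -0.29 for UHRF1 and -0.60 for DPPA3. TET2 (2.88 and 1.59), TET3 (-1.56 and -1.54) and ZFP57 (-2.20 and -2.56) had the same sign and passed 1 log2 unit in both ranges.

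At the hatching stage the classes stood further apart. Of 9 members, 7 differed by at least 1 log2 unit, beside 47.9% of all genes, and 6 of these were lower in PE-like cells, beside 33.7% of all genes. The median over all genes was itself -0.45, and -0.16 after scaling, so lower values in PE-like cells were common. After scaling, 6 of 9 members passed 1 log2 unit, beside 46.97% of all genes, and 5 of these were lower, beside 26.2%. ZFP57 ran from 16.2 over a median of 50.1 to 93.1 FPKM in the 19 EPI-like cells. In the 7 PE-like cells it was 0, 0.10, 0.18, 0.32, 0.43, 0.49 and 0.93 FPKM. The groups did not overlap, the difference was -5.21 (pooled SD 0.57), and 0 of 7 PE-like cells reached an FPKM of 1 (interval 0 to 40.96%).

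DNMT3B was the other member whose classes did not overlap at the hatching stage. It ran from 359 over 649 to 861 FPKM in EPI-like cells, and the PE-like cells held 3.30, 31.8, 60.9, 128, 150, 226 and 240 FPKM (difference -3.08, pooled SD 1.08). Of all genes, 3.41% had classes that did not overlap. DNMT3B in PE-like cells also lay 1.94 log2 units below the late PE-like cells (difference -1.94, pooled SD 1.17), whereas in EPI-like cells it lay 1.36 above (pooled SD 0.84). For these steps from late to hatching, 2 of 9 members passed 1 log2 unit in PE-like cells (3 with scaling, where TET2 was 1.12 higher), beside 41.7% of all genes, and 4 of 9 in EPI-like cells, beside 15.9% of all genes.

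TET2 and TET3 had differences of opposite sign between the classes at hatching. TET2 was 0.04, 6.24, 9.08, 26.96, 73.2, 85.3 and 89.6 FPKM in the PE-like cells and ran from 0 over 0.03 to 14.01 in EPI-like cells, of which 3 of 19 reached an FPKM of 1 (difference 3.78, pooled SD 1.51). The 4 highest PE-like cells were thus above every EPI-like cell, and the lowest was close to the EPI-like median. TET3 was at 0.11 FPKM or less in 5 of the PE-like cells and at 7.10 and 16.8 in the others, against a range from 0.04 over 9.84 to 40.4 in EPI-like cells (difference -2.07, pooled SD 1.46). TET2 exceeded TET3 in 5 of 24 late EPI-like, 23 of 28 late PE-like, 2 of 19 hatching EPI-like and 6 of 7 hatching PE-like cells. In early cells, where no class could be named, it did so in 22 of 44, and in middle cells in 11 of 39.

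The maintenance pair was also lower in hatching PE-like cells, and DNMT3A was lower without scaling. DNMT1 had a median of 14.1 FPKM in EPI-like cells and of 0.07 in the PE-like ones (difference -2.60, pooled SD 1.23), and UHRF1 had 10.5 and 0.05 (difference -2.48, pooled SD 1.73). A single PE-like cell held 13.1 FPKM of DNMT1 and 55.4 of UHRF1, the latter the highest of the stage. DNMT3A differed by -1.14 (pooled SD 0.87), and by -0.56 after scaling, which no longer passed 1 log2 unit. DNMT3L and DPPA3 were closer, at -0.35 (pooled SD 0.63) and -0.31 (pooled SD 0.70), and their signs turned to 0.24 and 0.29 with scaling.

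Several technical and growth measures moved with the hatching classes. The 7 PE-like cells had a median of 9.74 M reads and 5680 genes at an FPKM of 1, against 13.2 M and 6940 in the EPI-like cells. All 12 of 12 DNA replication genes were lower in PE-like cells by at least 1 log2 unit (median -2.50). So were 12 of 12 mitosis genes (median -3.92), beside 33.7% of all genes. In late cells 0 of 12 replication and 0 of 12 mitosis genes passed 1 log2 unit between the classes, beside 17.2% of all genes. The PE-like hatching cells all have numbers from 1 to 18 in their titles, and the labels do not say what the numbers mark. Compared only with the 5 EPI-like cells of the same range, whose median was 9.02 M reads, the difference was -5.27 for ZFP57, -3.13 for DNMT3B, -2.44 for DNMT1, -1.75 for TET3, -1.63 for UHRF1 and 2.93 for TET2. For DNMT3A it was -0.19, so the lower level in PE-like cells did not hold in that range. The part of proliferation in these differences was not tested.

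**Figure D3:**
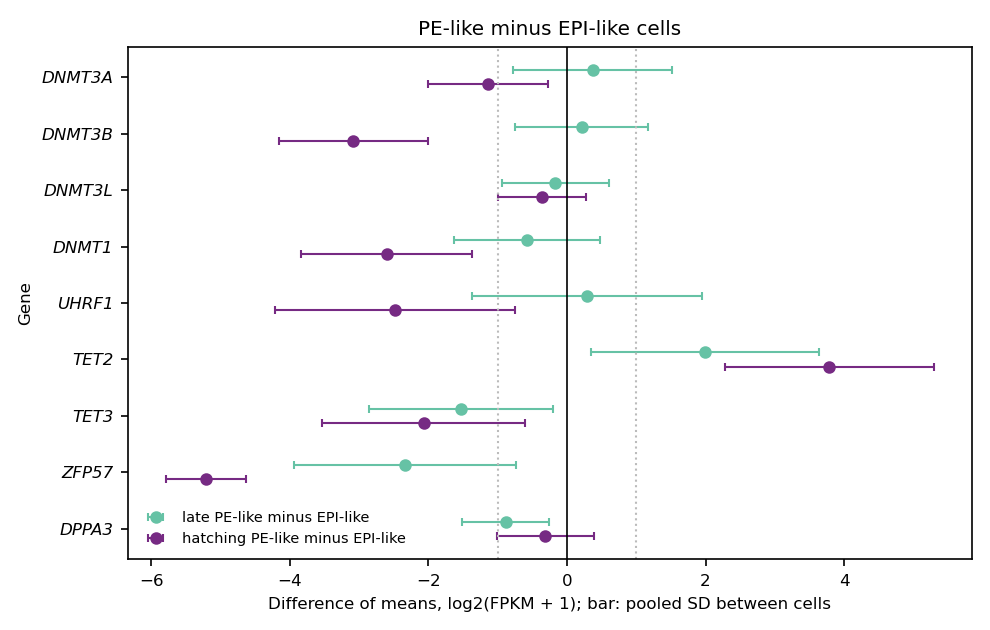
Difference of means, PE-like minus EPI-like, in log2(FPKM + 1) (horizontal axis) for each member (vertical axis), in late and in hatching cells; bars show the pooled SD between cells and dotted lines mark 1 log2 unit. TET2 is positive (1.99 late, 3.78 hatching) and ZFP57 the most negative (-2.34 late, -5.21 hatching), while DNMT3B is 0.22 in late and -3.08 in hatching cells.

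Against NANOG and SOX17 themselves, the members showed a link mainly after the middle stage. Rank correlations across cells of 1 stage are given as descriptions, since the cells share stage, culture and perhaps embryo. In early (44 cells) and middle cells (39 cells) no member reached 0.5 in size with NANOG or SOX17, the largest being 0.49 for UHRF1 with NANOG in early cells. In early cells NANOG reached an FPKM of 1 in 44 of 44 cells and SOX17 in 6, so SOX17 could hardly rank the cells there. Across 52 late cells the correlation with NANOG was 0.70 for TET3, 0.67 for DPPA3, 0.61 for ZFP57, -0.65 for TET2 and -0.48 for DNMT3A. With SOX17 the same 4 leading genes took the opposite signs, at -0.65 for TET3, -0.62 for DPPA3, -0.63 for ZFP57 and 0.51 for TET2. DNMT3B, DNMT3L, DNMT1 and UHRF1 stayed below 0.4 in size with both.

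Part of the late relation to NANOG was also present within a class. In the 28 late PE-like cells NANOG ran from 0.53 to 1005 FPKM, with an upper quartile of 69.9. Its correlation there was -0.69 with DNMT3A, 0.63 with DPPA3, 0.57 with TET3, -0.52 with TET2 and 0.32 with ZFP57. SOX17 reached an FPKM of 1 in 26 of these 28 cells and in 2 of the 24 late EPI-like cells. The classes are therefore mixed in the 2 genes, and the part of such cells in the values within a class was not tested. In the 24 late EPI-like cells NANOG varied little (SD 0.44 log2 units) and no member reached 0.5 with it. With SOX17 no member reached 0.5 in size within either late class. In PE-like cells the correlation with SOX17 was 0.08 for TET2, -0.23 for DPPA3, -0.37 for TET3 and -0.48 for ZFP57. In EPI-like cells it was 0.19, -0.18, -0.43 and 0.03 in the same order. Across 26 hatching cells the correlation with NANOG was 0.59 for ZFP57 and 0.54 for DNMT1, and with SOX17 it was 0.90 for TET2 and -0.51 for DNMT3A. These hatching values mostly contrast 2 separate groups of cells. Within the 19 hatching EPI-like cells TET2 and SOX17 correlated at 0.91, but 14 of the 19 were below an FPKM of 1 in both genes and 6 were at 0 in both, and Pearson's correlation of the log2 values was 0.29. Within the 7 hatching PE-like cells values are too few to read.

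In late cells that held both NANOG and SOX17, the medians of TET2, TET3 and ZFP57 lay between those of the other late cells. With thresholds of 32 FPKM for NANOG and 1 FPKM for SOX17, chosen after the values were seen, 24 late cells were high in NANOG only, 19 in SOX17 only and 9 in both. TET2 had a median of 2.004 FPKM in the first group, 7.23 in cells with both and 22.2 in cells with SOX17 only. TET3 had 12.2, 7.36 and 1.53 FPKM in the same order, and ZFP57 had 56.2, 25.6 and 13.8. In cells with SOX17 only, TET2 was at 1.70 FPKM or more in 19 of 19. The groups overlapped in range in each gene.

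**Figure D4:**
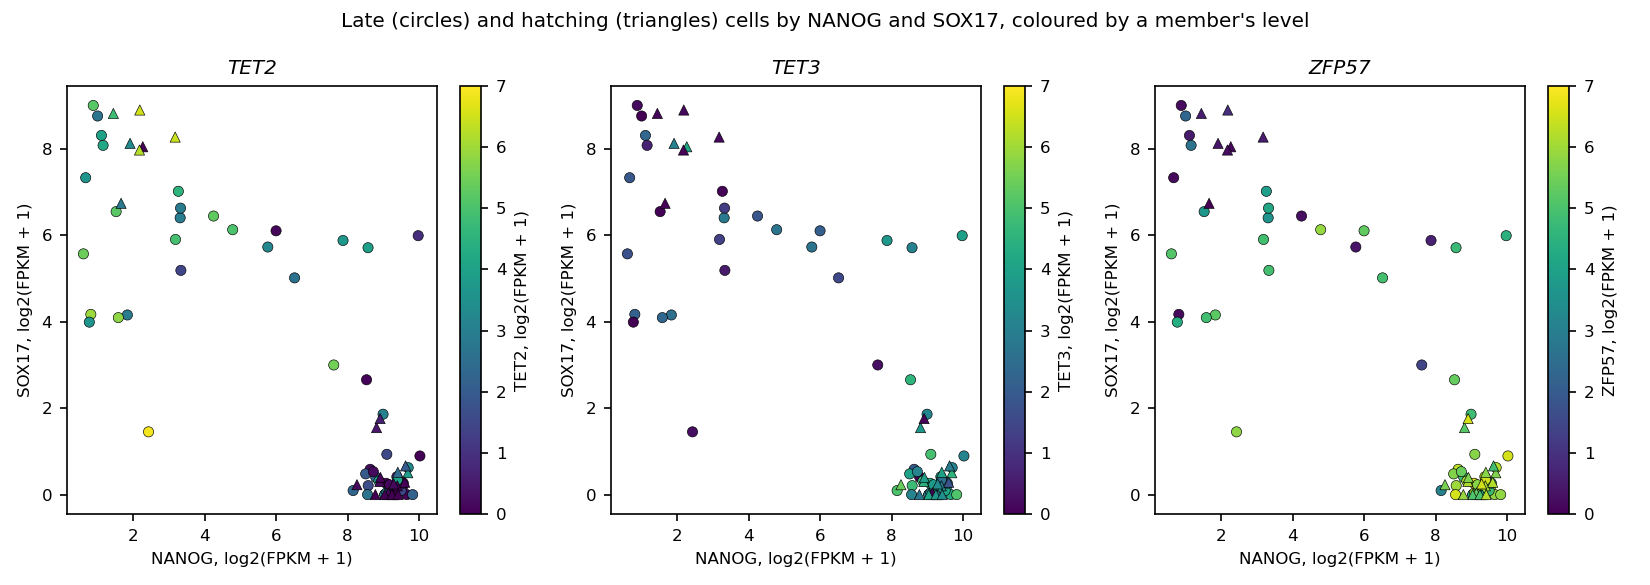
Late (circles) and hatching (triangles) cells by NANOG (horizontal axis) and SOX17 (vertical axis), both as log2(FPKM + 1), coloured by the log2(FPKM + 1) level of TET2, TET3 or ZFP57 in 1 panel each. Cells high in NANOG and low in SOX17, at the lower right, are mostly low in TET2 and higher in TET3 and ZFP57, and the 7 hatching cells high in SOX17 hold no ZFP57 above 0.93 FPKM.

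Cells of 1 stage also differed by the range of their title numbers, which the clusters of early and middle cells followed. The early clusters of 24 and 19 cells hold the numbers 1 to 28 and 29 to 48, and the middle clusters of 26 and 13 cells hold 1 to 28 and 29 to 55. Titles of some middle and late cells begin with HSM or HSL, and these cells are in the clusters but in neither range. Early cells up to 28 (25 cells) had a mean DNMT3B of 6.51 and those from 29 (19 cells) one of 5.28, a difference of -1.23 (pooled SD 1.32). In the higher range 1 of 9 members was lower by at least 1 log2 unit, beside 5.33% of all genes. Either way it was 1 of 9 members and 1078 of the 9781 genes, so the members' share was near that of all genes. DNMT3B exceeded DNMT3A in 22 of 25 cells of the lower and in 9 of 19 of the higher range. Middle cells of the lower range (25 cells) had a mean DNMT3B of 6.84 and those of the higher range (12 cells) one of 5.33 (difference -1.51, pooled SD 1.39), and TET2 differed by -1.42 (pooled SD 1.45), beside 12.6% of all genes. In late cells of both classes together 0 of 9 members passed 1 log2 unit between the ranges, beside 8.07% of all genes. Within late PE-like cells mean DNMT3B was 8.99 in the lower range (9 cells) and 7.65 in the higher (16 cells). TET2 was 4.77 and 3.14 there, and the other members were closer. Within late EPI-like cells UHRF1 differed most, at 0.67 (9 cells) and 1.87 (13 cells). No share of all genes is given within these classes. In hatching EPI-like cells DNMT3A was 1.29 higher in the 14 cells of the higher range, without overlap (26.4 to 50.0 against 59.5 to 170 FPKM), UHRF1 was 1.16 higher and TET2 differed by -1.16, beside 23.7% of all genes. Non-overlapping ranges were seen for 0.429% of all genes there. The 14 cells had a median of 14.3 M reads and 7020 genes at an FPKM of 1, against 9.02 M and 6539 in the lower range. Of 12 mitosis genes 9 were higher by at least 1 log2 unit in the 14 cells, as was 1 of 12 DNA replication genes, beside 1571 of 9781 genes. The part of depth and growth in these differences was not tested. Whether the numbers stand for embryos, dates or neither cannot be told from the labels, and embryo and range cannot be told apart.

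**Figure D5:**
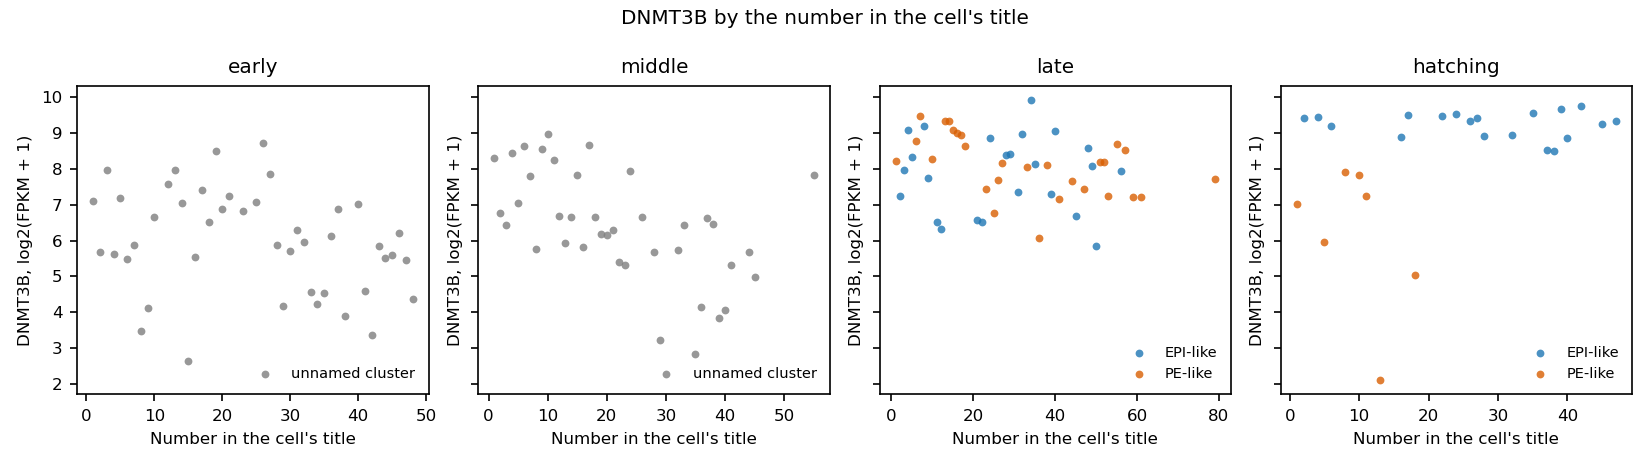
DNMT3B as log2(FPKM + 1) (vertical axis) by the number in the title of each cell (horizontal axis), 1 panel per stage, points coloured by class. Early cells numbered 29 to 48 (mean 5.28) and middle cells from 32 (mean 5.33) lie lower than those of lower numbers (means 6.51 and 6.84), and the hatching PE-like cells all lie at numbers up to 18.

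Other genes of the methylation pathway were taken as a list of 59, of which 53 were matched and 47 had a mean FPKM of at least 1. Between the early and hatching stages 7 of 47 were higher and 8 lower by at least 1 log2 unit (median 0.11, against -0.12 over all genes). The 15 are 31.9% of the list, close to the 27.5% of all genes. The largest differences were 3.55 for CXXC5, a zinc finger protein that binds unmethylated CpG sites, -2.04 for GADD45B and -1.61 for GADD45A, stress-response proteins linked to demethylation, and -1.73 for SMCHD1, a protein that keeps X-linked and imprinted genes silent. Between late PE-like and EPI-like cells 2 were higher and 7 lower (median -0.22, against -0.03 over all genes), in all 19.1% of the list, beside 17.2% of all genes. KHDC3L, a maternal-effect gene whose loss disturbs imprints, had a mean log2 level of 11.85 in the EPI-like and 6.01 in the PE-like class (difference -5.84). CDCA7L, a relative of the HELLS cofactor CDCA7, differed by -3.07, CXXC5 by -2.71 and the repair protein PARP1 by -2.42. Between hatching PE-like and EPI-like cells 3 were higher and 21 lower (median -0.72, and -0.21 after scaling, against -0.45 and -0.16 over all genes), in all 51.1% of the list, beside 47.9% of all genes. The largest differences were -7.33 for KHDC3L, -5.07 for CDCA7L, -3.54 for PARP1 and -3.35 for KDM2B, a CpG-binding histone demethylase.

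Likeness to other genes was measured by the rank correlation over all 161 cells, among 8953 genes at an FPKM of 1 in at least 20% of cells. TET2 was most like LAMA1 (0.66), LRPAP1 (0.60) and LAMB1 (0.57), and LAMA1 and LAMB1, basement membrane laminins, are among the PE markers. ZFP57 was most like RIF1 (0.51), KHDC3L (0.47) and POU5F1 (0.47), the last an EPI marker. TET3 was most like CBFA2T2 (0.50), CDH1 (0.48) and PSMC3 (0.47), and with the stage means taken out NANOG was second in its list (0.53). DNMT3B was most like FXYD5, RILPL2 and FBLIM1 (0.58 each). DNMT3L (SCNN1A at 0.62, SMIM1 and PDCL3 at 0.59) and DPPA3 (PDCL3 at 0.62, FAM103A1 and SPIC at 0.61) had PDCL3 in common. With the stage means taken out, PDCL3 was in neither list of 3, and DNMT3B was most like RPS2 (0.42), CCNE1 (0.41) and NLN (0.40). DNMT3A reached no more than 0.47, with SPG20. These values include the differences between stages and clusters, which the cells share.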

How the data were processed

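Polyadenylated RNA of single cells was amplified by PCR and sequenced as 150-base paired reads, per the labels' protocols. The authors deposited 1 table of FPKM values per gene symbol and cell. HTSeq, DESeq2, FastQC and TopHat2 2.1.0 appear in the submitters' processing notes without a stated role. A genome build, an annotation and a handling of shared reads were not given in the sources used here. These FPKM values fall in steps of whole reads for 13856 of 13857 genes above 0 in at least 2 cells (tolerance 1e-05 reads or 1e-09 relative), which gave the read totals. PCR reads carry no molecular identifiers.

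Levels are means over cells of log2(FPKM + 1), a scale that understates differences of low genes, with the SD between cells, and shares at an FPKM of 1 have exact Clopper-Pearson 95% intervals. Differences are counted from 1 log2 unit, over the 9781 genes with mean FPKM of at least 1. All 9 members passed that filter. Cells were clustered within a stage on the 1000 most variable genes without list genes (10 principal components, Ward linkage, 2 to 4 clusters by silhouette). The rule for naming a cluster (at least 5 cells and 3 raised markers, more than of any other class) was set after the clusters were seen. No doublet caller was run, since cells were picked singly. The named genes are all members with NANOG and SOX17, for each member at an FPKM of 1 in at least 50% of cells the 3 genes most like it, and for 3 comparisons the 4 pathway genes with the largest difference. The members, lists, markers and rules were chosen with earlier results of these data known. The steps were tested on simulated data. The tools were matplotlib 3.10.9, scikit-learn 1.9.0, scipy 1.17.1, numpy 2.4.6 and pandas 2.3.3 under Python 3.11.15. Alternatives varied the pseudocount, scaling, summary over cells, class definition and title-number range.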

Additional observations from a re-analysis of the deposited data

How the results depend on the processing

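Of 594 differences of single members under an alternative, 552 kept their sign and 42 changed it. Of the 42, 41 belong to differences under 1 log2 unit in the values reported, and 23 come from ranges of title numbers. The remaining one is TET2 between hatching and late cells, at 0.34 in the hatching cells of low title numbers against -1.20 in all. Apart from it, 575 values moved by less than the spread between cells, 40 of them across 0, and 18 by more. The counts of members and pathway genes in this section come without the share of all genes under the same setting. A change in them therefore need not be particular to these genes. Counts of members past 1 log2 unit depended most on the pseudocount. With a pseudocount of 10 they were 1 of 9 for hatching minus early, late minus middle, late PE-like minus EPI-like and EPI-like hatching minus late, 0 for hatching minus late and 3 for hatching PE-like minus EPI-like. With 0.1 they were 2 for middle minus early and 4 for PE-like hatching minus late. The count for late minus middle was 1 with medians over cells or the log2 of mean FPKM, and that for PE-like hatching minus late was 4 with medians. Cells of high title numbers in the later stage gave 1 for middle minus early and 6 for hatching minus late. Late cells of low numbers gave 6 between the classes, among them DNMT3B at 1.41. Chosen after seeing the data, early cells of high numbers gave 1 for middle minus early and middle cells of high numbers 6 for late minus middle.

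Pathway genes past 1 log2 unit with a pseudocount of 10 numbered 5 for hatching minus early, 1 for middle minus early, 1 for late minus middle, 3 for hatching minus late, 5 for late PE-like minus EPI-like, 1 for EPI-like and 10 for PE-like hatching minus late. Members correlated with NANOG at 0.5 or more in size numbered 2 (Pearson) and 1 (scaled) in early cells and 0 in late EPI-like cells. In hatching cells they numbered 6 (Pearson), 1 (scaled), 0 within the EPI-like and 5 within the PE-like class. With SOX17 they numbered 0 in late EPI-like and 0 in late PE-like cells, and in hatching cells 7 (Pearson), 1 (scaled) and 1 in EPI-like cells. No paired analysis was possible because replicate numbers only name cells in accession order and no test was made. Each stage is 1 sample of unknown embryos, so no setting stands in for a replicate.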
